A study of Homo sapiens with 10 samples.

Results

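The small ribosomal subunit is built from 1 ribosomal RNA and a set of proteins, most of them named RPS. The 27 genes described here encode such proteins: RPSA, RPS3, RPS3A, RPS4X, RPS6, RPS7, RPS9, RPS10, RPS12, RPS13, RPS14, RPS15, RPS15A, RPS16, RPS18, RPS19, RPS20, RPS21, RPS23, RPS24, RPS25, RPS26, RPS27, RPS27A, RPS28, RPS29 and FAU. They were taken by symbol from the 10631 genes with a listed edit, and RPS2 was left out because the expression construct carries its sequence. All 27 had at least 1 listed edit, and together they gave 2269 of the 657165 entries in the 10 libraries, where an entry is 1 edited position in 1 isoform of 1 library.

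The study put the cytidine deaminase APOBEC1 on ribosomes by fusing it to RPS2 (Ribo-STAMP), so that mRNA being translated collects C-to-U edits, and read the edits on long PacBio reads of polyadenylated RNA. HEK293T, a human embryonic kidney line, carried a doxycycline-inducible vector for APOBEC1 without RPS2 (APOBEC1-only, n = 3) or for Ribo-STAMP (n = 3), and the cells of all 6 libraries received 1 ug/mL doxycycline for 72 h. MDA-MB-231 cells, from a breast cancer without hormone receptors or HER2, carried the inducible Ribo-STAMP vector in all 4 libraries and received 1 ug/mL doxycycline for 48 h. Of these, 2 libraries had no further treatment and 2 came from cells also given 100 uM CoCl2 for 48 h, which blocks the breakdown of hypoxia-inducible factors and is used to mimic low oxygen. The MDA-MB-231 comparison has no library with APOBEC1 alone and none without an editor. The labels do not say whether the replicates were separate cultures, so the spread behind each p-value may be technical. Library kits and induction times differed between the lines, and no test was made between them.

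Ribosomal protein mRNAs are short and abundant, and nearly all start with a run of pyrimidines, the 5′ terminal oligopyrimidine (TOP) motif. Through it the mTOR kinase and the protein LARP1 set, as a group, how many of them sit on polysomes and how stable they are. Low oxygen is known to dampen mTOR signalling. Free small subunit proteins are unstable, and mutations in several of these genes (RPS19 most often, also RPS7, RPS10, RPS24 and RPS26) cause Diamond-Blackfan anaemia. Loss of 1 copy of RPS14 is tied to the anaemia of the 5q deletion syndrome.

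The edits themselves are single converted cytidines in the coding sequence. To show where in a message they fall, the listed position with the most edited reads over the 4 MDA-MB-231 libraries is printed for 8 members, 1 position per gene, with 12 bases on each side on the mRNA strand, 5′ to 3′, from the GENCODE 29 transcripts. The edited cytidine is the capital letter.
RPS14: tgtatttggtgtCtgccatatcttt
RPS19: gcaggagttcgtCagagctctggca
RPS6: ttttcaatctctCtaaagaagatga
RPS15A: gaagaagcaagaCgaaaacacacag
RPS18: caagatcccagaCtggttcttgaac
RPS4X: gtgtttgctcctCgtccatccaccg
RPS7: gatgaactcggaCctcaaggctcag
RPS3: agaccctgttaaCtactacgttgac
In GRCh38 these cytidines lie at chr5:150447644 in exon 2 of RPS14, chr19:41860819 in exon 2 of RPS19, chr9:19378421 in exon 4 of RPS6, chr16:18783050 in exon 5 of RPS15A, chr6:33276018 in exon 4 of RPS18, chrX:72275718 in exon 3 of RPS4X, chr2:3575846 in exon 3 of RPS7 and chr11:75404164 in exon 5 of RPS3. Each of these is coding. The base just before the cytidine was U in 4 of the 8 and A in the other 4, and 5 of the 8 cytidines were the last base of a codon.

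At these positions few reads were edited. Positions listed in all 4 libraries are absent from these files, so positions with more edited reads may be missing. The RPS14 position had 2 edited reads of 294 in untreated replicate 1, 8 of 665 in CoCl2 replicate 1 and 9 of 612 in CoCl2 replicate 2. The RPS19 position had 3 of 361 in untreated replicate 1, then 8 of 603 and 8 of 598 with CoCl2, and RPS3 had 1 of 436, then 6 of 769 and 7 of 725. These 3 were not listed in untreated replicate 2, and the other 5 were not listed in untreated replicate 1. RPS6 had 2 of 701 in untreated replicate 2, 7 of 970 and 10 of 930 with CoCl2. RPS15A had 5 of 132 against 7 of 155 and 6 of 162, RPS18 2 of 46 against 7 of 59 and 7 of 74, RPS4X 5 of 248 against 3 of 368 and 7 of 350, and RPS7 1 of 365 against 6 of 495 and 8 of 522. Among listed positions, 1 per gene, these 8 have the highest sums of edited reads over the 4 libraries, with chromosome 8 left out. The members had 410 and 588 edited reads untreated and 1020 and 971 with CoCl2, so this choice favours positions listed in both CoCl2 libraries. All 8 were listed in both CoCl2 libraries. Every one was absent from exactly 1 untreated library, and in these files that absence cannot be read as 0 edited reads, because no position of any gene was listed in all 4 MDA-MB-231 libraries. Among the 246 member entries listed in 3 libraries, the missing library was untreated replicate 1 in 117 (47.6%), untreated replicate 2 in 60 (24.4%), CoCl2 replicate 1 in 41 (16.7%) and CoCl2 replicate 2 in 28 (11.4%). Over all genes untreated replicate 1 was the missing one in 28.9% of such entries. The part of these missing positions in the differences between CoCl2 and untreated libraries was not tested.

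The 4 MDA-MB-231 libraries held 155572 to 177069 edited reads and 1.12e+06 to 1.21e+06 reads over the listed isoforms, which stand in for depth. The APOBEC1-only libraries of HEK293T held 2971 to 3498 edited reads and the Ribo-STAMP libraries of that line 50908 to 65792. All 8 markers of MDA-MB-231 used as a check of the labels, among them CD44, VIM and AXL, were listed in each of its 4 libraries. In HEK293T libraries 0 to 2 of those 8 were listed and 2 to 5 of the 7 HEK293T markers, with NEFL and STMN2 at no listed edit in any. Each MDA-MB-231 library also listed 2 of the 7 HEK293T markers, CKB and MAP1B. APOBEC1-only replicate 2 listed 2 as well, so the count of HEK293T markers does not by itself separate the lines. Only genes with an edit are listed, so a marker that is not listed may still be expressed.

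In untreated MDA-MB-231 cells the 27 members took 0.232% and 0.370% of a library's edited reads in replicates 1 and 2, and in CoCl2-treated cells 0.591% and 0.624%. They took 0.467% and 0.616% of the covering reads without CoCl2, and 0.805% and 0.846% with it. Thus both shares were higher in both CoCl2 libraries, and untreated replicate 2 lay between untreated replicate 1 and the treated pair. Per 100 covering reads the members had 7.70 and 8.35 edits untreated and 10.6 and 10.4 with CoCl2. The other genes stood at 15.3 and 13.7 untreated and at 14.1 and 13.7 with CoCl2, so the members were edited less often per read than the rest in each library, and the gap was smaller in the treated pair. Edits per read depend on length, since a longer coding sequence offers more cytidines: the members' median coding sequence was 436.5 bases, and that of all genes 1176.

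**Figure D1:**
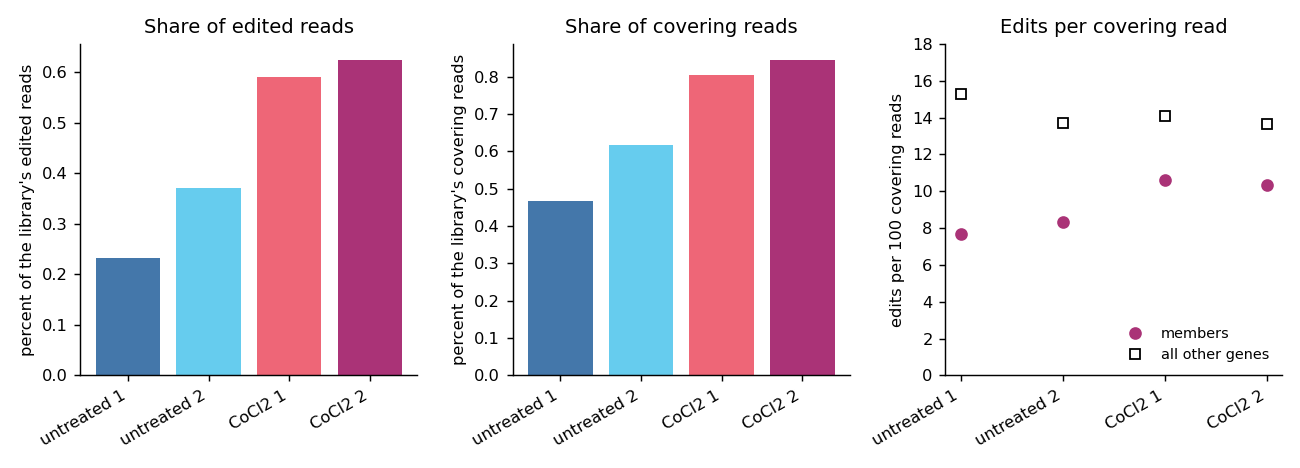
Share of each MDA-MB-231 library's edited reads (left) and covering reads (middle) on the small subunit members, in percent, and edits per 100 covering reads (right) for members (filled circles) and all other genes (open squares), 1 bar or point per library. The members' shares run from 0.232% and 0.467% in untreated replicate 1 to 0.624% and 0.846% in CoCl2 replicate 2, while the edits per read of the other genes stay between 13.7 and 15.3.

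Set per cytidine, the members spread widely. The density of edits, counted per 10000 covered coding cytidines and averaged over the 4 libraries, ran from 3.48 in RPS6 to 31.6 in RPS18, with a median of 9.63 over 26 members against 7.14 over 5629 genes. RPS18, a head protein that touches the large subunit, stood at 24.2 and 29.6 untreated and at 37.0 and 35.6 with CoCl2. RPS25, which some viral internal ribosome entry sites need, stood at 35.3 and 29.1 untreated and at 31.4 and 27.5 with CoCl2. RPS20, at 37.2 and 19.6 untreated and 21.6 and 30.2 with CoCl2, differed more between its untreated libraries than between the group means (28.4 and 25.9). Behind these 3 came RPS9, a protein of the mRNA entry channel, at 23.9. The order among the top 4 is not resolved by these libraries, since their values overlap.

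At the low end stood RPS6, the subunit protein phosphorylated by S6 kinases downstream of mTOR, with 2.38 and 3.65 untreated and 3.96 and 3.93 with CoCl2. RPS15, whose tail reaches the decoding site, had a mean of 3.78, RPS3, which lines the mRNA entry channel, 3.84, and RPS19 4.31. These 4 overlap one another as well, and none of them overlaps the top 4 in any library. In all, 18 of 26 members lay above the median gene, 9 of 26 in the highest 10% of genes and 4 of 26 in the lowest 25%. The order followed coverage: RPS6 had the most covering reads (783 per library) and RPS9 the fewest (20.3), and across the 26 members the rank correlation of covering reads and edit density was −0.94. Covering reads are also the divisor of the density, and positions edited in all 4 libraries are not listed, so the correlation is a description and the part of either in it was not tested. The share of coding cytidines preceded by A or U, which APOBEC1 prefers, ran from 31.8% in FAU to 58.6% in RPS27A and had a rank correlation with edit density of 0.31.

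**Figure D2:**
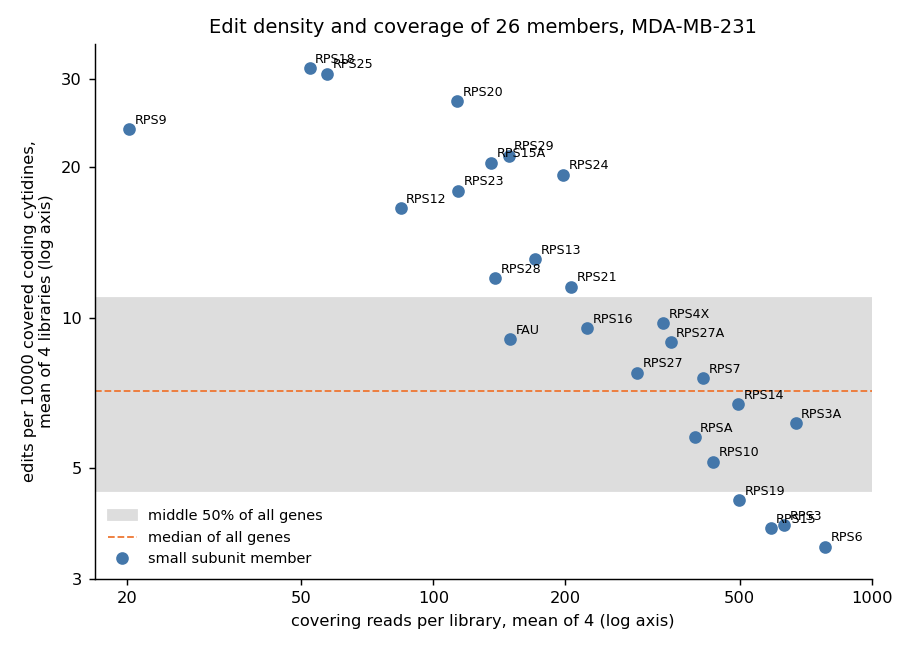
Edits per 10000 covered coding cytidines (vertical, log axis) against covering reads per library (horizontal, log axis), both as the mean of 4 MDA-MB-231 libraries, 1 point per member, with the median (dashed) and middle 50% (grey band) of 5629 genes. RPS18 at 31.6 and RPS6 at 3.48 mark the ends, and 18 of 26 points lie above the dashed line at 7.14.

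All 1158 member positions of MDA-MB-231 fell on a cytidine within the coding sequence of their own gene. The base before it was A or U at 73.5% of positions in untreated replicate 1 (95% exact binomial interval 68.4 to 78.3), 70.4% in untreated replicate 2, 69.2% in CoCl2 replicate 1 (65.3 to 73.0) and 71.8% in CoCl2 replicate 2. Among all coding cytidines of the same isoforms 43.5% have A or U before them. Over all genes the share was 80.0 to 81.3%, higher than in the members in each library, against 43.3% of coding cytidines. At positions with at least 2 edited reads it was 87.7 to 91.4% in the members and 90.2 to 92.2% in all genes, so the members differed from the rest mostly at positions seen in a single edited read, which made up 62.5 to 82.4% of their entries. The interval reflects the counting of positions alone, and reads may be copies of 1 molecule.

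Edits were spread along the members' coding sequences. Their median place was 0.48 to 0.52 of the way from start to stop codon in the 4 libraries. With the coding sequence cut into 3 equal parts, the first held 31.8 to 33.5% of edited reads, the middle 34.8 to 36.8% and the last 30.5 to 33.0%. Over all genes the last part held the most in each library, 34.7 to 35.1%.

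Most members were read from a single main isoform. Of 47 member isoforms listed in MDA-MB-231, 30 were listed in all 4 libraries, 1 for each of 22 members and 2 each for RPS10, RPS15A, RPS20 and RPS27A. The RPS10 pair encodes a coding sequence of the same length (495 bases), yet ENST00000648437 had 7.11 and 7.55 edits per 100 reads untreated and 8.66 and 9.23 with CoCl2, and ENST00000621356 had 1.35, 4.08, 1.76 and 2.36 in the same order. The first was thus above the second in each library, on 197 to 404 and 74 to 170 covering reads. The second rests on only 1, 4, 3 and 3 edited reads in the same order, and the first on 14, 21, 35 and 36. The RPS15A pair, both of 390 coding bases, lay closer: ENST00000563390 had 9.38, 15.1, 25.6 and 19.7 edits per 100 reads and ENST00000322989 14.3 and 7.69 untreated, 23.7 in CoCl2 replicate 1 and 7 edits on 35 reads in CoCl2 replicate 2. Both of these RPS15A isoforms had more edits per read in both CoCl2 libraries than in either untreated one, though ENST00000322989 had only 4 and 2 edited reads untreated. The isoform pairs were not tested. RPS10, RPS15A and the other members have many processed pseudogene copies, and how reads were assigned between near-identical sequences is not given in the sources used here.

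The first question of the CoCl2 comparison is how many edits the members collected. Edited reads were summed per gene and divided by the relative depth of the library. In MDA-MB-231, 9 of 26 members tested rose with CoCl2 and 0 fell (limma, Benjamini-Hochberg adjusted p under 0.05 over 4097 genes), where 12% of all genes tested rose and 2.9% fell. With TMM scaling in place of relative depth, 3 members rose (RPS3, RPS13 and RPS19), and over all genes 212 rose and 200 fell, in place of 493 and 119. All 26 had a log2 change above 0, with a median of 1.17 and a range of 0.32 to 1.63, beside a median of 0.19 over all genes. In 24 of 26 both CoCl2 libraries stood above both untreated ones, as they did in 41.3% of all genes, and 26.5% of all genes had the reverse order, which no member had. RPS23 and RPS27 were the 2 whose groups overlapped. RPS9, RPS12 and RPS28 reached the minimum of 10 edited reads in the CoCl2 libraries alone. Their higher treated values were therefore set by that entry rule, and they add no support to these counts. RPS26, a protein at the mRNA exit, was not tested: it had 1 edited read in all, in CoCl2 replicate 2, on 8 covering reads.

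The 9 that rose were RPS3, RPS15 and RPS19 of the subunit's head and RPS3A, RPS4X, RPS7, RPS13, RPS14 and RPS15A of its body and platform. RPS19, needed for the last steps of small subunit maturation, had 14.2 and 12.4 depth-scaled edited reads untreated and 40.1 and 46.6 with CoCl2. Its log2 change of 1.63 ± 0.38 (SE, limma adjusted p = 0.0305) was the highest of the members. RPS13, a body protein that contacts the large subunit, went from 11.3 and 13.3 to 41.1 and 36.8, a log2 change of 1.59 ± 0.39 (limma adjusted p = 0.0322). In both genes the lowest CoCl2 value was more than the untreated pair added together.

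RPS3 stood at 22.7 and 24.8 depth-scaled edited reads untreated and at 66.8 and 66.1 with CoCl2 (log2 change 1.45 ± 0.33 SE, limma adjusted p = 0.0305). RPS15 stood at 18.9 and 21.0, then 50.3 and 55.2 (1.36 ± 0.35, limma adjusted p = 0.0337). RPS15A stood at 10.4 and 17.2, then 41.1 and 35.7 (1.45 ± 0.40, limma adjusted p = 0.0373). RPS3 and RPS15 agreed closely within each group, whereas RPS15A, a body protein next to the ribosomal RNA core, differed more between its untreated libraries. RPS7, which can also bind the p53 regulator MDM2, had 18.9 and 29.5 untreated and 58.5 and 68.2 with CoCl2 (1.38 ± 0.36, limma adjusted p = 0.0337). RPS14, a platform protein, had 20.8 and 33.4, then 70.9 and 62.8 (1.31 ± 0.36, limma adjusted p = 0.0359).

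The 3 members with the most edited reads were RPS4X, RPS3A and RPSA. RPS4X, the X-linked form of a body protein, had 32.1 and 48.6 depth-scaled edited reads untreated and 91.4 and 79.1 with CoCl2, a log2 change of 1.09 ± 0.34 (SE, limma adjusted p = 0.0495). RPS3A, a platform protein near the mRNA exit, had 28.3 and 46.7, then 84.2 and 88.8, a log2 change of 1.23 ± 0.34 (limma adjusted p = 0.0379). RPSA, also described as a laminin receptor precursor, had 30.2 and 48.6, then 74.0 and 63.9, a log2 change of 0.83 ± 0.35 that was not called (limma adjusted p = 0.109). In these 3 the untreated libraries differed by more than those of RPS3, RPS13, RPS15 and RPS19 did, with replicate 2 the higher. That order held in 22 of 26 members, while CoCl2 replicate 2 was above CoCl2 replicate 1 in 12 of 26.

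Among the 17 tested members that were not called, adjusted p ran from 0.0505 in RPS24 to 0.640 in RPS27. RPS6 was just outside, at 19.8 and 39.1 depth-scaled edited reads untreated and 64.7 and 63.9 with CoCl2 (log2 change 1.18 ± 0.38 SE, limma adjusted p = 0.0550). RPS12 and RPS9 had log2 changes of 1.59 and 1.44 on few edits, with untreated values of 2.83 to 8.58. RPS23, a decoding-centre protein, had 10.4 and 19.1 untreated and 22.6 and 18.4 with CoCl2, and RPS27, a platform protein with a zinc finger, 15.1 and 10.5, then 12.3 and 20.6. By place in the subunit the medians lay close: 1.05 over 12 head members (3 called) and 1.19 over 14 tested body and platform members (6 called). Without CoCl2 replicate 1, or without CoCl2 replicate 2, 0 of 26 members were called, and over all genes 2 and 3 rose, the lone treated library being assumed to vary like the untreated pair. The members' median log2 change was 1.20 and 1.19 in these fits, so the calls ended while the median change stayed near its value of 1.17 with all libraries. Without untreated replicate 1 the members' median log2 change was 0.84, beside 0.18 over all genes. Without untreated replicate 2 it was 1.48, beside 0.17. RPS12, RPS18 and RPS21 had 3, 8 and 7 edited reads in untreated replicate 1. Without untreated replicate 2 these 3 entered through the CoCl2 libraries alone, so their rise there was set by the entry rule.

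**Figure D3:**
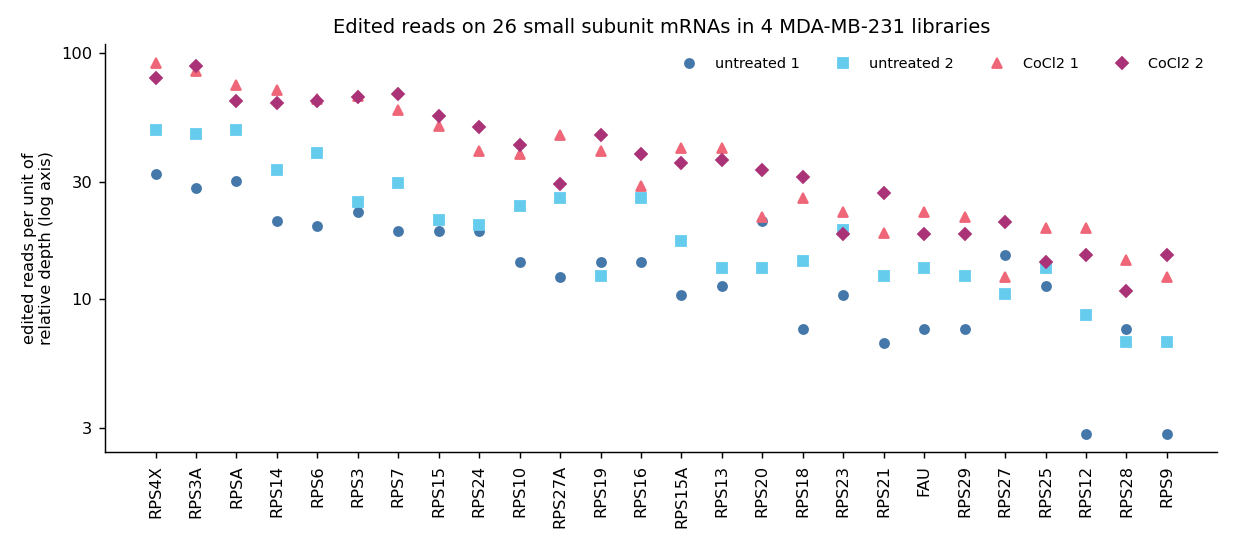
Edited reads per unit of relative depth (vertical, log axis) for 26 members in the 4 MDA-MB-231 libraries, 1 symbol per library, members ordered by their mean. Both CoCl2 symbols lie above both untreated ones in 24 of 26 members, and untreated replicate 2 lies above untreated replicate 1 in 22.

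More edits can come from more mRNA molecules or from more edits on each. Covering reads, scaled between libraries by a trimmed mean of M-values, stand in for the first. Of 26 members tested, 22 rose with CoCl2 and 0 fell (limma, adjusted p under 0.05 over 5673 genes), where 24.1% of all genes rose and 19.4% fell. The median log2 change was 0.76 with a range of 0.43 to 1.09, beside −0.05 over all genes. All 26 had both CoCl2 libraries above both untreated ones, an order seen in 38.7% of all genes, with the reverse in 39.5%. Bulk libraries do not tell more mRNA in each cell from more cells of a kind. Only RPS9, RPS12, RPS25 and RPS29 were not called (limma adjusted p = 0.0825, 0.0575, 0.123 and 0.145).

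RPS23 rose most, from 54.2 and 97.3 scaled covering reads untreated to 154 and 159 with CoCl2 (log2 change 1.09 ± 0.27 SE, limma adjusted p = 0.00505). RPS18 went from 28.5 and 43.4 to 60.4 and 80.5 (0.97 ± 0.31, limma adjusted p = 0.0175). RPS14 went from 280 and 424 to 647 and 666 (0.93 ± 0.21, limma adjusted p = 0.00337). In each of these 3 the untreated libraries stood apart from each other, replicate 1 the lower. RPS10, which is ubiquitylated when ribosomes collide, went from 258 and 355 to 588 and 562 (0.92 ± 0.21, limma adjusted p = 0.00305). RPS3A went from 430 and 512 to 898 and 883 (0.92 ± 0.19, limma adjusted p = 0.00208), and RPS15 from 349 and 488 to 760 and 790 (0.91 ± 0.20, limma adjusted p = 0.00303). These 3 had treated values that agreed within a few percent of each other while the untreated pair did not.

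RPS28, a small head protein at the mRNA exit, rose from 82.7 and 116 to 183 and 178 scaled covering reads (log2 change 0.88 ± 0.24 SE, limma adjusted p = 0.00842). FAU, made as a fusion of a ubiquitin-like protein with the subunit protein RPS30, rose from 91.3 and 126 to 199 and 191 (0.86 ± 0.24, limma adjusted p = 0.00851). RPS7 rose from 258 and 345 to 507 and 568 (0.85 ± 0.21, limma adjusted p = 0.00468), and RPS6 from 518 and 655 to 990 and 1009 (0.78 ± 0.19, limma adjusted p = 0.00469). RPS27A, whose precursor carries ubiquitin in front of the ribosomal protein, is named beside FAU for its fusion, after its values were seen, and rose as well, from 217 and 341 to 412 and 436 (0.64 ± 0.22, limma adjusted p = 0.0276). Untreated replicate 2 was above untreated replicate 1 in all 26 members, so the untreated libraries differed from each other in the direction in which CoCl2 differed from both.

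Transcript length moved with the same contrast. The mean length of the listed isoforms, weighted by their reads, was 2803 and 2575 bases in the untreated libraries and 2313 and 2326 with CoCl2. Over all genes the log2 change of coverage with CoCl2 fell by 0.53 for each doubling of transcript length, and untreated replicate 2 minus replicate 1 fell by 0.29. CoCl2 replicate 2 minus replicate 1 had a slope of 0.00. The members' median transcript was 780.5 bases long and that of all genes 2827. With the length trend taken out of each library, 2 of 24 members rose (RPS3 and RPS19), 2 fell (RPS21 and RPS29), and the members' median log2 change of coverage was −0.10. Over all genes 11.7% rose and 10.3% fell in that fit, so the members' counts were near the background. The main isoforms of RPS3 and RPS19 have 2097 and 2359 bases, and those of RPS21 and RPS29 have 344 and 296. The amount taken out depends on length, so these calls rest on the isoform length given to each gene. With coding length in place of transcript length, 3 rose (RPS3A, RPS6 and RPSA), 1 fell (RPS29) and the median was 0.13, where 13% of all genes rose and 12.3% fell. The genes called in either length fit were named after their values were seen. RPS23 and RPS27 could not enter, since the annotation used has no length for their main isoform. A library's make-up by length and the CoCl2 treatment cannot be told apart for these short mRNAs. The same trend in edited reads was −0.63 per doubling of transcript length. With coding length taken out, 0 of 24 members were called for edited reads, where 9.06% of all genes rose, and their median was 0.49, beside 0.21 over all genes.

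Editing per covering read, on the log2 scale of edited over unedited reads, had almost no such trend, with a slope of −0.03. No member was called in either direction (0 of 26, limma over 5673 genes), and 0% of all genes rose and 0% fell. At an unadjusted p under 0.05 there were 5 members, RPS3, RPS7, RPS13, RPS15 and RPS19, all higher with CoCl2, and 8.53% of all genes. The members' median difference was 0.40 and their range −0.41 to 1.05, beside a median of 0.20 over all genes, and 21 of 26 were above 0. In 16 of 26 both CoCl2 libraries stood above both untreated ones, as in 30.1% of all genes, and in 1 of 26 both stood below, as in 9.64%.

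The level of RPS19 went from 3.86 and 3.02 edits per 100 covering reads untreated to 6.47 and 7.18 with CoCl2 (difference 0.96 ± 0.22 SE on the log2 scale, limma unadjusted p = 0.00256, adjusted p = 0.518). RPS3 went from 5.50 and 4.19 to 8.45 and 8.29 (0.78 ± 0.21, adjusted p = 0.518 by limma). RPS13 went from 9.38 and 9.72 to 19.4 and 16.5 (0.87 ± 0.28, adjusted p = 0.518 by limma). All 3 had no overlap between the groups, and none passed the adjustment over all genes. RPS4X stood at 14.3 and 16.1, then 22.1 and 19.1 (0.43 ± 0.24), RPS3A at 6.64 and 9.03, then 9.35 and 10.1 (0.32 ± 0.23), and RPSA at 11.1 and 15.1, then 13.9 and 13.6 (0.08 ± 0.23). RPSA thus had more covering reads with CoCl2 and a level of editing per read inside the untreated range. RPS23 was the 1 member below in both treated libraries, at 15.8 and 17.5 untreated and 14.7 and 11.0 with CoCl2 (−0.41 ± 0.34, limma adjusted p = 0.751). Restricting the count to positions listed in a single library, an alternative chosen after seeing the data, gave a members' median of 0.13 beside 0.17 over all genes.

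**Figure D4:**
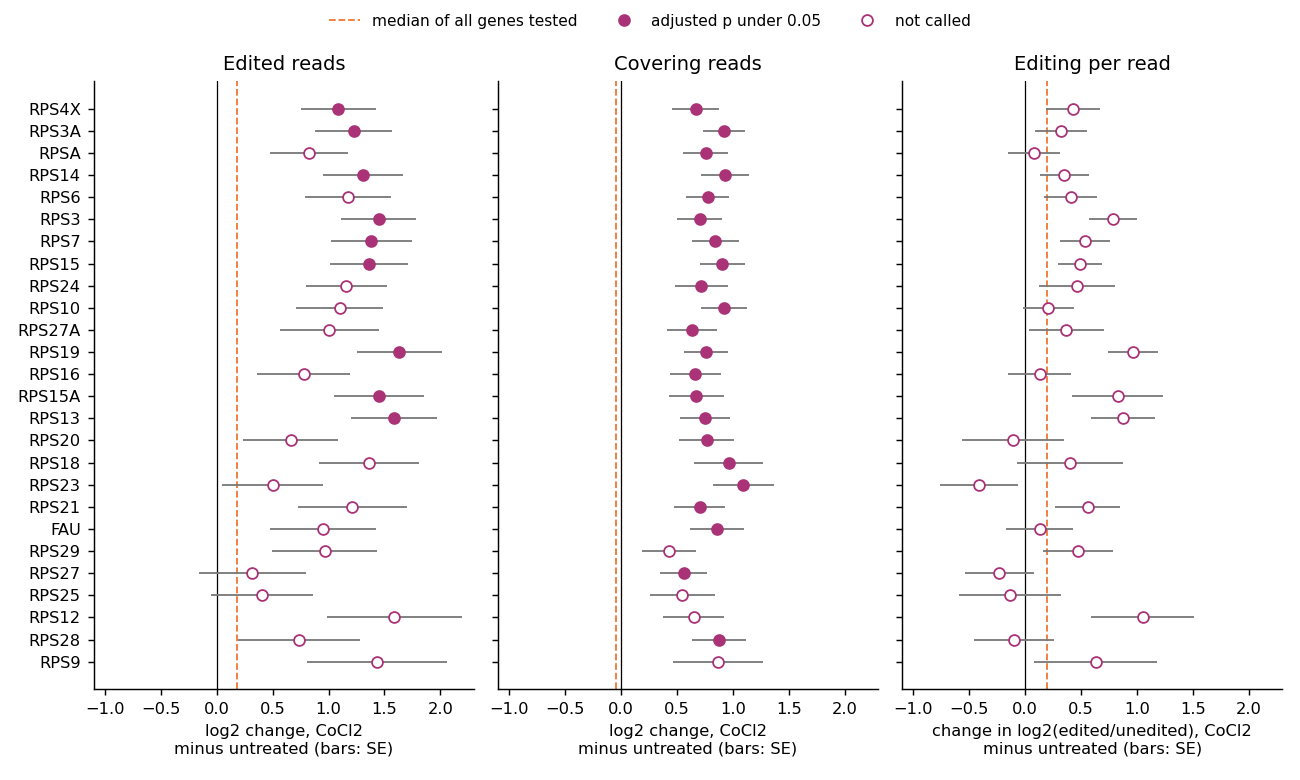
Change with CoCl2 in MDA-MB-231 for each of 26 members in edited reads (left), covering reads (middle) and editing per read (right), on the log2 scale, with the standard error as bars. Filled points passed an adjusted p of 0.05, and the dashed line is the median of all genes tested: 9 points are filled on the left, 22 in the middle and 0 on the right.

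Other groups of translation genes give the setting. The 42 large subunit proteins tested had a median log2 change in edited reads of 1.22, with 21 higher and 0 lower, and in coverage 33 of 43 rose and 0 fell with a median of 0.71. RPL3, RPL8 and RPLP0 were among those that rose in edited reads. RPS2 had 49.1 and 65.8 depth-scaled edited reads untreated and 145.9 and 118.1 with CoCl2, but reads of the construct may be among them. The median transcript of the large subunit group was 975.5 bases long.

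The other mRNAs with a TOP motif did not move as 1 group. Of 15, 3 rose in edited reads (EEF1G, EIF3H and TPT1), 1 fell (PABPC1, the cytoplasmic poly(A)-binding protein, log2 change −1.87, limma adjusted p = 0.0299) and the median was 0.16. In coverage 5 rose and PABPC1 fell (−1.49, limma adjusted p = 0.00103). EEF1A1, the elongation factor that brings tRNA to the ribosome, had a coverage change of −0.12 (limma adjusted p = 0.559). Of the factors that assemble the small subunit, 2 of 12 rose in edited reads, EMG1 and TSR2, and 0 fell, with a median of 0.03. In coverage 4 of 12 rose and 2 fell, TSR1 and RIOK2, with a median of −0.03. The median transcript was 2303 bases in the TOP group and 3670 bases in the assembly group, longer than in the ribosomal proteins. Whether these groups differ from the members was not tested.

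In HEK293T the comparison asks how much of the members' editing needs the fusion to RPS2. Edits on the members were few: 1, 0 and 5 edited reads in the 3 APOBEC1-only libraries and 79, 64 and 329 in the 3 Ribo-STAMP libraries. All Ribo-STAMP values were above all APOBEC1-only values, and Ribo-STAMP replicate 3 stood apart from the other 2. Of the 27 members, 22 were listed in at least 1 Ribo-STAMP library and 11 in each of the 3, against 5 in any APOBEC1-only library and 0 in each. The whole libraries differed in the same direction. Over all genes, APOBEC1-only libraries listed 1522 to 1832 genes with 2971 to 3498 edited reads. Ribo-STAMP libraries listed 4495 to 5037 genes with 50908 to 65792 edited reads. No edit was listed in any HEK293T library on RPS12, RPS24, RPS26, RPS28 and RPS29. Coverage exists only where an edit was listed, so mRNA levels of unlisted members are unknown. No member isoform was listed in all 6 libraries, and coverage and editing per read could not be tested for any member here.

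RPS6 was the 1 member with enough edited reads to be tested. It had 0, 0 and 2.40 depth-scaled edited reads in APOBEC1-only and 21.3, 18.7 and 77.7 in Ribo-STAMP, a log2 change of 4.44 ± 0.64 (SE, limma adjusted p = 1.49e-08). The groups did not overlap. RPS6 reached the minimum of 10 edited reads in its 3 Ribo-STAMP libraries alone. A rise without overlap was therefore set by that entry rule, and the call gives no further support. Nearly all genes tested rose (99.7% of 654, with 0.153% lower), and their median log2 change was 3.75, so RPS6 lay near the background of the comparison. With scaling that assumes most genes do not change, the median fell to 0.75 and RPS6 was not called (log2 change 2.12, limma adjusted p = 0.344). Under the other planned settings its log2 change was 2.71 to 5.19 and it was called in each. When genes with any edited read were let in, 11 of 22 members were called higher, among them RPS3A, RPS3, RPSA and RPS19, beside 2265 of 7004 genes.

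RPS3A, the member with the second most edited reads in this line, had 0 in each APOBEC1-only library and 2, 11 and 74 in Ribo-STAMP. RPSA had 1, 0 and 0, then 5, 3 and 42. RPS3 had 0, 0 and 1, then 16, 5 and 16. In each of the 3, every Ribo-STAMP value was above every APOBEC1-only value, as it was in 10 of the 22 members with any edit in this line and in 34.6% of all genes with any edit there. For 16 members replicate 3 was the highest Ribo-STAMP library, and RPS3 is 1 of those where it was not above both others. Replicate 3 of APOBEC1-only likewise held 5 of that group's 6 edited reads on the members. Read-weighted isoform length was 3549 bases in replicate 3 of Ribo-STAMP, below the 4436 and 3983 bases of replicates 1 and 2, and 3511 bases in replicate 3 of APOBEC1-only, below 3710 and 3732. The part of this in the members' values was not tested.

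Where a member was listed with both editors, the reads behind each value can be set side by side. In APOBEC1-only replicate 3 RPS6 had 2 edits on 221 covering reads (0.905 per 100), and in Ribo-STAMP 25 on 29, 18 on 40 and 83 on 82 (86.2, 45.0 and 101.2 per 100). The value can pass 100 because edits are summed over positions. RPS3 had 1 on 43 (2.33 per 100) with APOBEC1 alone and 16 on 12, 5 on 10 and 16 on 41 with Ribo-STAMP (133 per 100 in replicate 1 and 39.0 in replicate 3). RPSA had 1 on 14 (7.14 per 100), against 5 on 6, 3 on 5 and 42 on 16 (83.3 per 100 in replicate 1 and 263 in replicate 3). In these 3 members each Ribo-STAMP value was higher than the APOBEC1-only value, which for any of them exists in 1 library only. Nearly all genes showed the same direction: of 392 tested for editing per read in this line, 95.7% rose. On isoforms listed in every HEK293T library, the other genes had 2.24 to 2.62 edits per 100 reads in APOBEC1-only. In Ribo-STAMP they had 42.9 to 45.0. RPS15, with 1 on 20, then 1 on 5, 1 on 2 and 1 on 9, and RPS10, with 1 on 11, then 2 on 10 in replicate 3 alone, rest on too few edits to compare. The members' ratios have no test, since they exist only where an edit was listed.

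**Figure D5:**
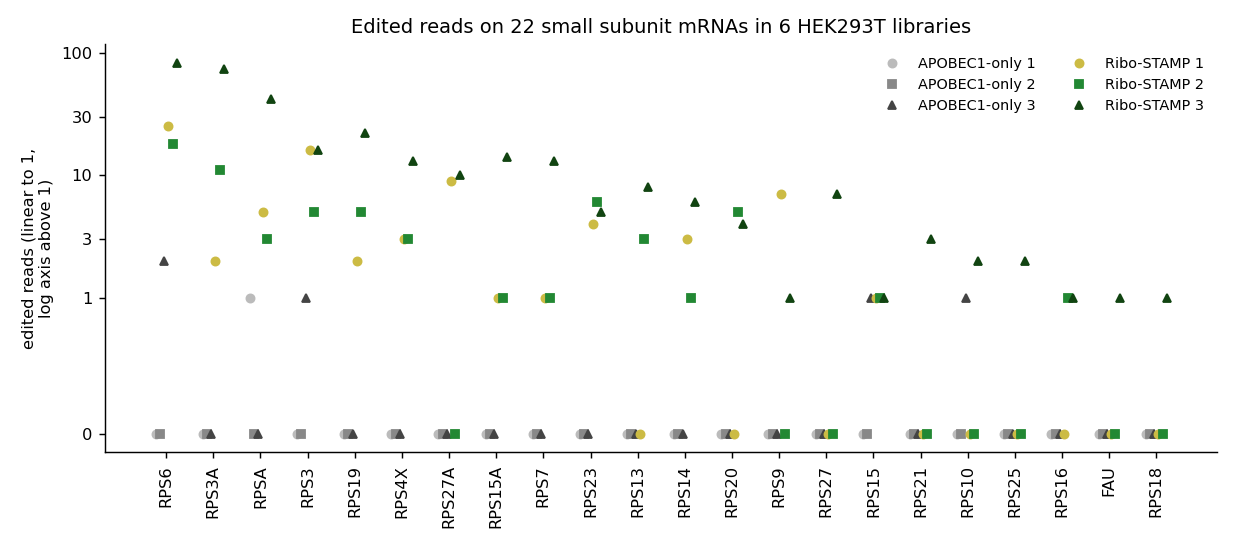
Edited reads (vertical, linear to 1 and log above) on the 22 members with any edit in HEK293T, 1 symbol per library, members ordered by their total, with symbols of a member set slightly apart. APOBEC1-only symbols lie between 0 and 2, and Ribo-STAMP replicate 3 reaches 83 on RPS6 and 74 on RPS3A.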

How the data were processed

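The authors deposited 1 file of coding-sequence edits per library. Each cell pairs edited reads with coverage for a position in an isoform (a pair of read counts, inferred from the values because no header names them). No source used here gives the aligner or edit caller. The submitters' processing notes name hg19 and hg38. All 1158 MDA-MB-231 member positions lay in their own GRCh38 coding sequence (GENCODE 29), and 56 of 281 HEK293T ones did, so coordinates and sequence are given for MDA-MB-231 only. For 3 members an annotated isoform of the same gene stood in for one not in that annotation.

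Edited reads were summed per gene over relative depth (median ratio of coverage), and a gene needed at least 10 in 2 libraries of MDA-MB-231 or 3 of HEK293T. That number of libraries is the size of the smaller group, so it was lower with 1 library left out. Coverage (TMM, trims of 30 and 5%, mean of at least 10) and editing per read (0.5 added to edited and unedited) used isoforms listed in all libraries of the line. Tests were two-sided, by limma 3.58.1 under R 4.3.3 on log2(value + 1), or on log2(edited/unedited), with limma's intensity trend and Benjamini-Hochberg adjustment over all genes. Adding 1 understates changes of genes with few edits. The scripts were tested on simulated data. Full values are given for called members (at most 10 per measure), the 3 with most edited reads in each line, and 8 positions. Members, lists and tests were chosen with earlier results of these data known, and the split into head, body and platform, which uses textbook structure, was made after values were seen. One further gene list is not reported here.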

Additional observations from a re-analysis of the deposited data

How the results depend on the processing

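Each fit has 2 or 3 libraries per group, and many member positions rest on 1 edited read, which limits every statement above. In MDA-MB-231 no member was called lower for edited reads under any setting run. The count of members called higher for edited reads (9) became 3 with TMM scaling, which moved the median of all genes from 0.19 to −0.01, 3 with positions covered by at least 20 reads, 0 with no filter, 0 with the number of listed positions in place of edited reads, and 14 with a replicate block. The share of all genes called higher was 12% as reported and in these fits 5.17%, 3.29%, 0 (no gene was called in either direction), 3.32% and 19.1%. The 3 called with positions covered by at least 20 reads were RPS3, RPS19 and RPS9. RPS9 had 14 and 17 covering reads untreated, below that cut, and 25 and 29 with CoCl2. Its call was therefore set by the cut and adds no support. The 14 with a replicate block include RPS12, which entered through the CoCl2 libraries alone and adds none either. Chosen after seeing the data, positions listed in a single library gave 0 of 9 tested and coding length taken out 0 of 24, with 0.687% and 9.06% of all genes higher. Leaving out 1 library gave 0 to 18. Members called higher for coverage (22) became 10 with isoforms listed in any library (12.2% of all genes higher), 2 with transcript length taken out and 3 with coding length taken out, where 2 and 1 members were called lower, and leaving out 1 library gave 0 (either CoCl2 library) to 26, where 0 to 34% of all genes were called higher. With transcript length taken out, the coverage changes of RPS7, RPS10, RPS14, RPS15 and RPS18 reversed to −0.091, −0.12, −0.11, −0.30 and −0.11, and with coding length out RPS28 to −0.27. Editing per read in MDA-MB-231 called 0 members under every setting run with all 4 libraries, and 0% of all genes in either direction. There RPSA reversed to −0.12 with each library centred on its median gene and to −0.14 without untreated replicate 1 (range −0.14 to 0.30 with 1 library left out), and RPS3A to −0.26 with positions listed in a single library. In HEK293T the count of members called higher (1) became 0 with TMM scaling, where 25 of 654 genes were called higher in place of 652, and 11 of 22 with no filter, where 32.3% of all genes were. Leaving out 1 library gave 1 to 3, in each fit all the members tested, where 97.4% to 99.6% of all genes tested were called higher. These members, RPS6, RPS3 and RPS3A, reached the minimum of 10 edited reads in Ribo-STAMP libraries alone. Their rise was therefore set by the entry rule, and these calls give no further support. The HEK293T coverage and editing-per-read fits hold no member. Their alternatives gave none either, except for coverage counted over isoforms listed in any library, with 0 where not listed. That fit let in 4 members and called 2 higher, where 389 of 2402 genes (16.2%) were called higher and 0 lower. The 0 there stands for no listed edit, so these calls cannot be read as mRNA levels. The share of member positions with A or U before the edit, 71.3% over the 4 libraries, was 89.9% with at least 2 edited reads, and the median place moved from 0.51 to 0.52.

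The replicate numbers were not taken as pairs: the correlation of same-numbered deviations was 0.02 for edited reads and 0.02 for coverage in MDA-MB-231, and 0.09, 0.12 and 0.33 for edited reads in HEK293T, where 1 of 3 is under 0.1. For HEK293T editing per read it was 0.12, 0.04 and 0.21. For HEK293T coverage it was 0.23, 0.44 and 0.58, all over 0.1, but no member was tested there. With the replicate block the MDA-MB-231 coverage count was 21, where 23.1% of all genes were called higher and 19.8% lower. RPS6 in HEK293T kept its log2 change of 4.44.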
